A study of Homo sapiens with 7 samples.

Results

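The genes described here are the transcriptional coactivator YAP1, its paralogue WWTR1 (also called TAZ), their DNA-binding partner TEAD1 and 7 genes known as their targets or regulators, ANKRD1, CYR61, CTGF, NUAK2, AMOTL2, AJUBA and LATS2. These 10 of the 58174 listed genes were chosen from the pathway with the siIGF2BP1 against siC values of this same experiment known, so that their values in that contrast are given as a description, without a test. RNA abundance was measured by total RNA-seq in Huh-7, an established cell line from a hepatocellular carcinoma. The cells received either a control siRNA (siC, 3 libraries) or a pool of siRNAs against IGF2BP1 (siIGF2BP1, called siImp1 in the sample names, 4 libraries). They were harvested after 72 h, and the sample names give no other difference between the groups. IGF2BP1 is an oncofetal RNA-binding protein that protects many of its target mRNAs from decay, and a pool of siRNAs lowers its mRNA without removing the gene. The comparison asks which transcripts depend on IGF2BP1 in these cells. It rests on 1 cell line, 1 siRNA pool and 1 time point.

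In the Hippo pathway the kinases STK3 and STK4, with the scaffold SAV1, activate the kinases LATS1 and LATS2, which phosphorylate YAP1 and WWTR1 and keep them out of the nucleus. Unphosphorylated YAP1 and WWTR1 bind the TEAD factors and switch on genes of the cytoskeleton, the extracellular matrix and proliferation. Some of these genes, such as AMOTL2 and LATS2, encode inhibitors of YAP1 and so form a negative feedback. In the liver the pathway limits organ size, and YAP1 is active in many hepatocellular carcinomas. The actin-regulated factor SRF shares targets with it, among them ANKRD1, CYR61 and CTGF.

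TEAD factors recognise the motif GGAATG, which reads CATTCC on the other strand. The sequences below show where it lies in front of targets that range from the largest difference, ANKRD1, to a small one, NUAK2, and in front of YAP1 itself. Each is the stretch of 250 bases before a transcription start from RefSeq (build GRCh38.p14), printed 5′ to 3′ on the strand of the gene, with the motif in capitals. They lie at chr10:90921088-90921337 for ANKRD1, chr6:131951373-131951622 for CTGF, chr1:205321746-205321995 for NUAK2 and chr3:134374448-134374697 for the second start of AMOTL2, all on the minus strand, and at chr11:102110197-102110446 on the plus strand for YAP1.
ANKRD1: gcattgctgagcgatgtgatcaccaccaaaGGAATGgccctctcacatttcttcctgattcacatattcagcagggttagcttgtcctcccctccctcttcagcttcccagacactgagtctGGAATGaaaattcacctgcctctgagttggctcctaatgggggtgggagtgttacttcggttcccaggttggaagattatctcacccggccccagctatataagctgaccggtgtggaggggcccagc
CTGF: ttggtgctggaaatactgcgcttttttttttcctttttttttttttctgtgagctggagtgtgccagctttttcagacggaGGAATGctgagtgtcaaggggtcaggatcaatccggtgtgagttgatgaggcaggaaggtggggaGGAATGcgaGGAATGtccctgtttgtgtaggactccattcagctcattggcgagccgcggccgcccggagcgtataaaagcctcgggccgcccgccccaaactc
NUAK2: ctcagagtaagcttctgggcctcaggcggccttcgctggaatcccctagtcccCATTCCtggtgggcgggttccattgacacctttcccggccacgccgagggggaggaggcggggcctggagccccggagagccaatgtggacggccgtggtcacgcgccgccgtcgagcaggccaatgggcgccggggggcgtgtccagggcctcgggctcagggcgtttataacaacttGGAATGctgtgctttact
AMOTL2: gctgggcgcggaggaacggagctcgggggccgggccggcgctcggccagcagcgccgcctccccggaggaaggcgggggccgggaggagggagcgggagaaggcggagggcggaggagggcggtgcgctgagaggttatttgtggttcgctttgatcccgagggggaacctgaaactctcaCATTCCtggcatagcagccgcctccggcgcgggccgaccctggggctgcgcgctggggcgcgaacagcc
YAP1: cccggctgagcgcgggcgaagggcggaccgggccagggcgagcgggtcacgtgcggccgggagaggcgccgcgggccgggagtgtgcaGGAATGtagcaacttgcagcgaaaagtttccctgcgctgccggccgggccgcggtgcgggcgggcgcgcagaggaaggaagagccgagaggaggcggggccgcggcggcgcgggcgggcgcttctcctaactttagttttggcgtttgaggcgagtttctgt

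Counted from the start site, the motif begins at -220 and -128 in ANKRD1, at -169, -104 and -95 in CTGF, at -197 and -18 in NUAK2, at -69 in AMOTL2 and at -162 in YAP1. The windows searched run from 250 bases before to 50 after each start, on both strands. The table holds 11 starts of 8 of the 10 genes, and CYR61 and TEAD1 were not matched. The motif occurred in 7 of the 11 windows (63.6%), against 4928 of the 35116 promoters of the table (14.0%). It was found for 7 of the 8 genes, WWTR1 being the exception. The CArG box, the motif of SRF, occurred in 0 of the 11 windows, against 1.29% of all promoters. At so low a share most sets of 11 windows would hold 0, so nothing is read from this. A match describes the letters of a window and does not show that a factor binds there.

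**Figure D1:**
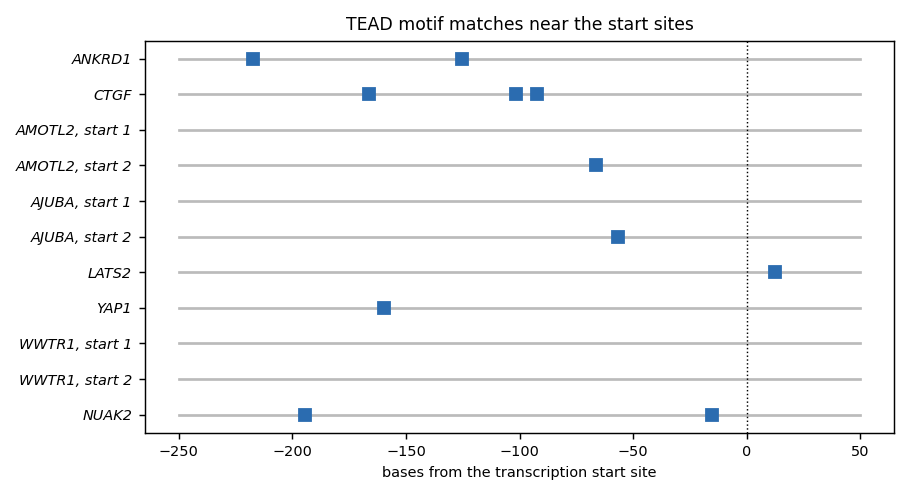
Matches of the TEAD motif around the start sites of the 8 genes with a RefSeq window. The horizontal axis gives the distance from the start in bases, each line is 1 window, and squares mark matches on either strand; CTGF holds 3 and ANKRD1 and NUAK2 hold 2 each.

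The libraries held from 12826550 to 33212205 reads on genes. FPKM scale the reads of a gene to its length and to the size of the library, and the 14839 genes that averaged 1 FPKM or more entered the fit. Log2 changes are siIGF2BP1 minus siC of log2(FPKM + 0.1), and the threshold was an adjusted p of at most 0.01. IGF2BP1 fell from 82.2 ± 2.03 FPKM (SD, n = 3) to 15.8 ± 0.583 FPKM (SD, n = 4), or 19.2% of siC (limma adjusted p = 1.16e-05). The first principal component, with 34.5% of the variance, placed siC replicate 3 far from the rest. The deviation of siC replicate 3 from the siC mean fell with transcript GC content (Spearman rho -0.427 across 14711 genes, which are not independent). That of siC replicates 1 and 2 rose with it (0.435 and 0.304), which partly follows from replicate 3, since all are taken from the same mean. In siIGF2BP1 the values for replicates 1 to 4 were 0.0017, -0.386, 0.264 and 0.224, so GC trends were not confined to siC. Results below are also given without siC replicate 3, which lay farthest out on the first component. All 6 hepatocyte markers were expressed, albumin at 1705 FPKM or more in each library. Of 7 markers of fibroblasts, endothelium and leukocytes, 5 stayed under 0.1 FPKM in all libraries, CD68 among them at 0 in 6 of 7. PECAM1 was at 2.58 to 3.29 FPKM. The collagen gene COL3A1 was at 0.390, 0.280 and 0.267 FPKM in siC and at 0.381, 0.446, 0.432 and 0.486 FPKM in siIGF2BP1, 140% of siC with groups that overlapped, and its part in the results below was not tested. The summed level of the 7 was 2.93 to 3.41 FPKM in siC and 3.31 to 3.69 FPKM in siIGF2BP1. In such bulk RNA, fewer cells with a transcript and less of it per cell cannot be told apart.

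Of the coactivators, YAP1 was lower and WWTR1 slightly higher after IGF2BP1 depletion. YAP1 (ENSG00000137693, GRCh38 chromosome 11, 102110447 to 102233424, plus strand) was at 20.4, 19.5 and 22.1 FPKM in siC replicates 1 to 3 and at 13.5, 14.4, 13.4 and 13.6 FPKM in siIGF2BP1 replicates 1 to 4. All 4 siIGF2BP1 libraries lay below every siC library. The mean went from 20.6 ± 1.33 FPKM (SD, n = 3) to 13.7 ± 0.432 FPKM (SD, n = 4), or 66.5% of siC, a log2 change of -0.58. WWTR1 (ENSG00000018408, chromosome 3, 149517235 to 149736714, minus strand) was at 3.16, 2.99 and 3.13 FPKM in siC and at 3.42, 3.79, 3.36 and 3.86 FPKM in siIGF2BP1. Here all 4 siIGF2BP1 libraries lay above every siC library, although the difference was small. The means were 3.09 ± 0.0927 FPKM (SD, n = 3) and 3.61 ± 0.255 FPKM (SD, n = 4), 117% of siC and a log2 change of 0.21. YAP1 was the more abundant of the pair per length and made up 87.0% of their sum in siC. That sum went from 23.7 ± 1.39 FPKM (SD, n = 3) to 17.3 ± 0.616 FPKM (SD, n = 4) (73.0%), with groups that did not overlap.

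TEAD1, the factor that tethers YAP1 and WWTR1 to DNA, was lower in siIGF2BP1. TEAD1 (ENSG00000187079, chromosome 11, 12674421 to 12944737, plus strand) was at 11.7, 12.1 and 16.9 FPKM in siC and at 8.35, 8.54, 8.56 and 8.16 FPKM in siIGF2BP1. The depleted libraries were nearly level and all below siC, while siC replicate 3 stood 1.42-fold above the mean of the other siC libraries. The means were 13.6 ± 2.91 FPKM (SD, n = 3) and 8.40 ± 0.188 FPKM (SD, n = 4), or 62.0% of siC. Without siC replicate 3 this was 70.7%, and the log2 change went from -0.66 to -0.50. The 4 TEAD genes together went from 40.1 ± 2.37 FPKM (SD, n = 3) to 30.5 ± 1.28 FPKM (SD, n = 4) (76.0%), again with groups that did not overlap. The sum includes TEAD1, a member chosen with this contrast known, and was highest in siC replicate 3, at 42.7 FPKM. Of the others, TEAD4 was at 63.8% of siC without overlap. TEAD2 and TEAD3 were at 96.1% and 93.4% with groups that overlapped.

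Among the targets, ANKRD1, CYR61, CTGF and NUAK2 differed widely from each other. ANKRD1 (ENSG00000148677, chromosome 10, 90912096 to 90921087, minus strand), a stress-induced ankyrin repeat protein of the nucleus and the sarcomere, showed the largest difference of the 10 genes. It was at 12.7, 13.7 and 12.96 FPKM in siC and at 3.71, 3.15, 4.12 and 3.39 FPKM in siIGF2BP1. The groups lay far apart and varied little within themselves. The mean in siIGF2BP1 was 27.4% of siC, from 13.1 ± 0.531 FPKM (SD, n = 3) to 3.59 ± 0.419 FPKM (SD, n = 4), a log2 change of -1.85 both with and without siC replicate 3. The depleted libraries held from 87 to 133 reads on ANKRD1.

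CYR61, now named CCN1, and CTGF, now named CCN2, are secreted matricellular proteins of the same family, and only CYR61 had groups that did not overlap. CYR61 (ENSG00000142871, chromosome 1, 85580761 to 85584589, plus strand) was at 5.02, 5.88 and 6.98 FPKM in siC and at 2.36, 2.15, 3.14 and 3.20 FPKM in siIGF2BP1. The groups did not overlap, but both were spread out, on 99 to 462 reads per library. The means were 5.96 ± 0.985 FPKM (SD, n = 3) and 2.71 ± 0.535 FPKM (SD, n = 4), or 45.5% of siC, a log2 change of -1.12 and of -0.996 without siC replicate 3. CTGF (ENSG00000118523, chromosome 6, 131948176 to 131951372, minus strand) was at 7.60, 7.38 and 25.8 FPKM in siC and at 7.24, 10.6, 6.07 and 5.63 FPKM in siIGF2BP1. The single high value is that of siC replicate 3, 3.44-fold above the mean of the other siC libraries, and the groups overlapped. Of the 14839 genes tested, 188, CTGF included, were as high or higher in that library against the other siC libraries. The CTGF means of 13.6 ± 10.6 FPKM (SD, n = 3) and 7.38 ± 2.24 FPKM (SD, n = 4), 54.3% of siC, hence rest on 1 library. Without it siIGF2BP1 was at 98.5% of siC, and the log2 change went from -0.65 to -0.065.

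NUAK2, a kinase of the AMPK family that is induced by YAP1, showed little difference. NUAK2 (ENSG00000163545, chromosome 1, 205302063 to 205321745, minus strand) was at 2.37, 2.28 and 2.93 FPKM in siC and at 1.80, 1.92, 1.95 and 2.40 FPKM in siIGF2BP1. The groups overlapped through siIGF2BP1 replicate 4. The means were 2.53 ± 0.356 FPKM (SD, n = 3) and 2.02 ± 0.262 FPKM (SD, n = 4), or 79.8% of siC, with a log2 change of -0.31, which was -0.20 without siC replicate 3.

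AMOTL2, AJUBA and LATS2, which act on YAP1 or on the LATS kinases, differed in how far their values moved. AMOTL2 (ENSG00000114019, chromosome 3, 134355347 to 134375479, minus strand), an angiomotin protein that holds YAP1 at cell junctions, was at 20.3, 20.8 and 17.6 FPKM in siC and at 10.3, 8.79, 11.3 and 9.93 FPKM in siIGF2BP1. The highest siIGF2BP1 library lay well below the lowest siC library. The means were 19.6 ± 1.73 FPKM (SD, n = 3) and 10.1 ± 1.04 FPKM (SD, n = 4), or 51.5% of siC, with a log2 change of -0.95. Among the siC libraries AMOTL2 was lowest in replicate 3, and without it the log2 change was -1.03.

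AJUBA (ENSG00000129474, chromosome 14, 22971177 to 22982551, minus strand), a LIM-domain scaffold that binds and inhibits the LATS kinases, was at 45.0, 45.6 and 45.3 FPKM in siC and at 31.0, 28.8, 34.9 and 31.5 FPKM in siIGF2BP1. The siC libraries were nearly equal and all above siIGF2BP1. The means were 45.3 ± 0.303 FPKM (SD, n = 3) and 31.6 ± 2.53 FPKM (SD, n = 4), or 69.6% of siC, with a log2 change of -0.52 with and without siC replicate 3. LATS2 (ENSG00000150457, chromosome 13, 20973036 to 21061586, minus strand), the kinase that phosphorylates YAP1, was at 9.68, 9.68 and 12.3 FPKM in siC and at 10.6, 9.60, 9.48 and 8.41 FPKM in siIGF2BP1. The groups overlapped, and the highest value was again that of siC replicate 3. The means were 10.5 ± 1.49 FPKM (SD, n = 3) and 9.53 ± 0.913 FPKM (SD, n = 4), 90.5% of siC and 98.5% without siC replicate 3, with log2 changes of -0.14 and -0.026.

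**Figure D2:**
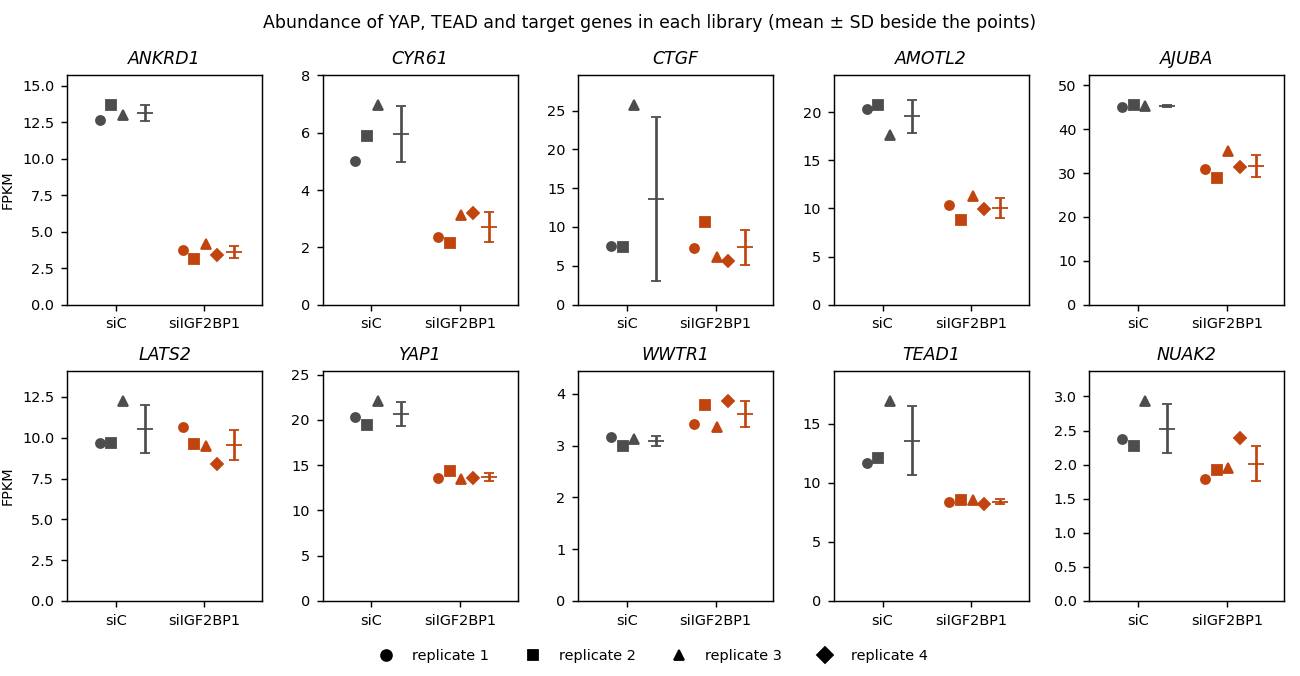
FPKM of the 10 genes in each library, from 0 on linear axes that differ between panels. Symbols mark replicates, and the bar beside them gives mean ± SD (n = 3 siC, n = 4 siIGF2BP1); CTGF, LATS2 and NUAK2 overlap between the groups, and the siC spread of CTGF comes from replicate 3.

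Several genes overlap others in the annotation, and since the counting is not stated to use strand, reads of partners on opposite strands may be mixed. CTGF overlaps the long noncoding RNA LINC01013 and WWTR1 overlaps WWTR1-AS1, each on the other strand, while AMOTL2 overlaps the pseudogene RPL39P5 and AJUBA a further protein-coding gene on their own strand. YAP1 and TEAD1 overlap unnamed long noncoding RNAs, and LATS2-AS1, opposite LATS2, was listed at 0. Reads per library on a member ran from 87 for ANKRD1 to 8741 for AJUBA.

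Set against siC replicates 1 and 2, the siIGF2BP1 libraries gave a similar picture. The median deviation of the 10 genes on the log2 scale was -0.52, -0.47, -0.42 and -0.53 in siIGF2BP1 replicates 1 to 4. Over all genes tested the medians lay between -0.038 and -0.017 in these libraries. In siC replicate 3 the 10 genes had a median of 0.24, while all genes tested had a median of -0.033. CTGF, TEAD1, CYR61, LATS2 and NUAK2 were the members that lay highest there, and AMOTL2 was the lowest.

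**Figure D3:**
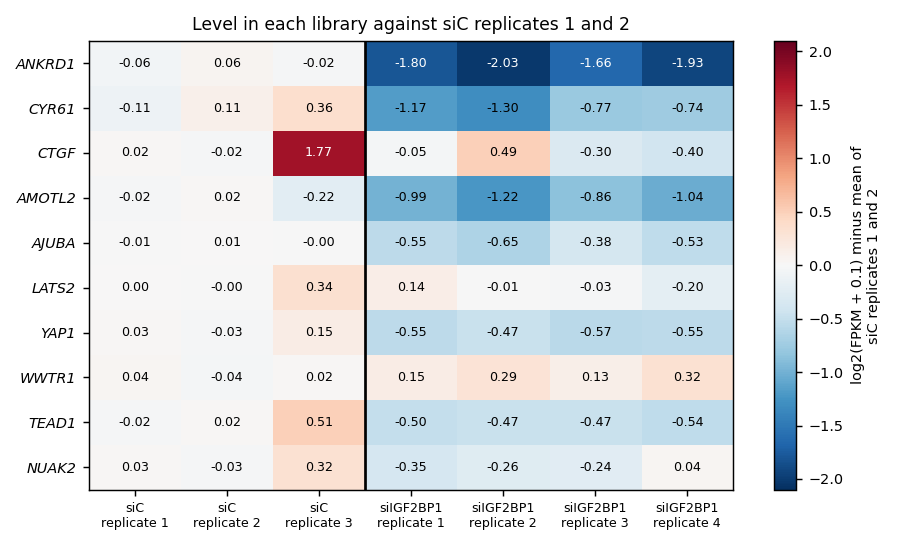
Log2(FPKM + 0.1) of each gene in each library minus its mean in siC replicates 1 and 2. Blue is lower and red higher; ANKRD1 is lowest in all 4 siIGF2BP1 libraries, and the red cell of CTGF in siC replicate 3, 1.77, is the highest value.

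Of the 10 genes, 9 had a lower mean in siIGF2BP1 and 1, WWTR1, a higher mean. The groups did not overlap for 6 genes that were lower and 1 that was higher, where 15.1% and 11.9% of all genes tested did so. The median log2 change of the 10 was -0.62, against -0.017 over all genes tested, and without siC replicate 3 it was -0.51, against -0.031. The genes were chosen by these values, so neither median tests the pathway. In the fit over all genes (limma, adjusted p at most 0.01), 2.28% of genes were called lower and 1.65% higher. The fit includes the 10 genes, but whether a member passed is not given as a result, since the contrast chose them. The lower calls over all genes depended on single libraries. They went from 338 with all libraries to 990 without siC replicate 3, 109 without siIGF2BP1 replicate 2 and 85 without siIGF2BP1 replicate 3. Without any of the other 4 libraries they were 53 to 81. The direction of all 10 was the same in each of the 7 fits that left out 1 library, the span being widest for CTGF, -0.96 to -0.065. With the GC trend of each library removed the median of the 10 was -0.60.

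**Figure D4:**
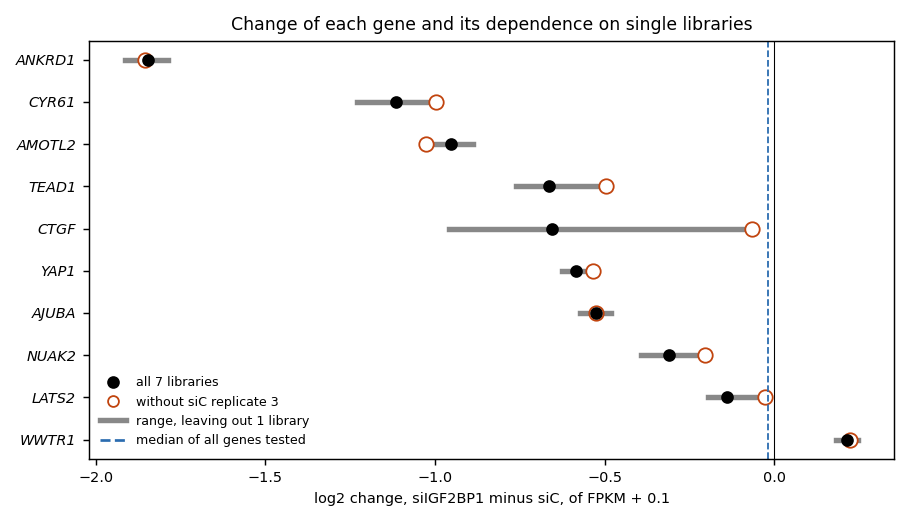
Log2 change of each gene (siIGF2BP1 minus siC, FPKM + 0.1) with all 7 libraries (filled), without siC replicate 3 (open) and over the fits that leave out 1 library (grey bar). The dashed line is the median of all genes tested, -0.017; ANKRD1 spans -1.91 to -1.79, while CTGF reaches -0.065.

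The levels of the 10 genes in siC, which compare per length in FPKM, spanned from AJUBA at 45.3 to NUAK2 at 2.53. AJUBA lay at the 94.8th and NUAK2 at the 43.9th percentile of the 16005 protein-coding genes detected in siC. Below AJUBA came YAP1, AMOTL2, CTGF, TEAD1 and ANKRD1, whose neighbours in this order overlapped in their siC libraries. LATS2, CYR61, WWTR1 and NUAK2 followed, and from ANKRD1 down no neighbours overlapped. The place of CTGF rests on siC replicate 3, without which its siC mean was 7.49 FPKM, below TEAD1 at 11.9, ANKRD1 at 13.2 and LATS2 at 9.68 FPKM. By mean, TEAD1 at 13.6 FPKM was followed by TEAD2 at 11.5, TEAD4 at 10.3 and TEAD3 at 4.77 FPKM. Without siC replicate 3 these means were 11.9, 11.2, 11.2 and 4.64 FPKM, so TEAD1, TEAD2 and TEAD4 were then nearly level.

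The rest of the pathway was examined through 4 lists written from general knowledge, none of whose genes is a member. The lists too were chosen with earlier results of these data known, so they are no independent test of the pathway. Of these 48 genes, 33 passed the filter, and in the fit over all genes 2 were lower and 2 higher at the threshold, with a median log2 change of -0.032 against -0.017 for all genes tested. Without siC replicate 3 the median of the lists turned to 0.045, against -0.031 for all genes tested. Without siC replicate 3, 6 were lower and 4 higher, and without any other library 1 was lower and 1 higher. Of all 14839 genes tested, 338 (2.28%) were lower and 245 (1.65%) higher with all libraries. Without siC replicate 3 these were 990 and 533, and without any other library 53 to 109 and 66 to 86. The list counts thus moved along with those over all genes. Of the 33, 9 were lower and 6 higher with groups that did not overlap, as 15.1% and 11.9% of all genes tested were. With voom, 489 of all genes tested were lower and 353 higher at the threshold.

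Of the upstream kinases and scaffolds, 1 of 17 tested was lower and 0 were higher at the threshold (limma, and the same with voom). Their median log2 change was -0.055 and turned to 0.045 without siC replicate 3. Groups did not overlap for 5 of the 17, AMOTL1, STK4, MOB1A, NF2 and FRMD6, all lower, against 15.1% of all genes tested. The gene past the threshold was AMOTL1, an angiomotin like AMOTL2. It fell from 4.06 ± 0.119 FPKM (SD, n = 3) to 2.65 ± 0.153 FPKM (SD, n = 4), or 65.1% (log2 change of -0.60 at a limma adjusted p = 0.00522). It passed without siC replicate 3 and not without any of the other 6 libraries. The angiomotins AMOT, AMOTL1 and AMOTL2 together went from 25.6 ± 2.07 FPKM (SD, n = 3) to 14.3 ± 0.983 FPKM (SD, n = 4), or 55.7%. Most of this sum is AMOTL2, at 19.6 FPKM in siC, a member chosen with this contrast known. The core kinases STK3 and STK4 and their scaffold SAV1 did not pass, at -0.018, -0.18 and -0.055 on the log2 scale (limma adjusted p = 0.967, 0.124 and 0.905). LATS1 was at 5.44, 6.06 and 12.2 FPKM in siC and from 5.45 to 8.90 FPKM in siIGF2BP1 (log2 change of -0.20 at a limma adjusted p = 0.744). As for CTGF and LATS2, siC replicate 3 held the highest value, and without it the log2 change of LATS1 was 0.16. LATS1 and LATS2 together went from 18.5 ± 5.25 FPKM (SD, n = 3) to 16.1 ± 2.03 FPKM (SD, n = 4), or 87.2%, with groups that overlapped. Of the LATS activators, MOB1A had a log2 change of -0.53 (limma adjusted p = 0.0261) and MOB1B of 0.034 (0.916). NF2, the scaffold that recruits LATS to the membrane, had a log2 change of -0.33 (limma adjusted p = 0.0141), and FRMD6, its FERM-domain relative, of -0.36 (0.106). MOB1A and NF2 passed without siC replicate 3 (limma adjusted p = 0.00133 and 0.00345). WTIP, a relative of AJUBA under the filter, went from 1.24 ± 0.0584 FPKM (SD, n = 3) to 0.593 ± 0.0802 FPKM (SD, n = 4), which did not pass without the filter either (limma adjusted p = 0.0361). AJUBA, LIMD1 and WTIP together went from 64.8 ± 1.12 FPKM (SD, n = 3) to 50.4 ± 2.498 FPKM (SD, n = 4), 77.7% of siC. The member AJUBA made up 69.9% of this sum in siC. LIMD1 was at 18.3 FPKM in siC and 18.2 FPKM in siIGF2BP1, 99.6% of siC with groups that overlapped.

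Of the 4 other TEAD and VGLL genes tested, 0 passed (limma, and with voom 1 lower), and their median log2 change was -0.078, or -0.037 without siC replicate 3. TEAD4 was lower and VGLL4 higher with groups that did not overlap, as 15.1% and 11.9% of all genes tested were. TEAD4 came nearest, from 10.3 ± 1.53 FPKM (SD, n = 3) to 6.56 ± 0.545 FPKM (SD, n = 4) (log2 change of -0.63 at a limma adjusted p = 0.0173). Without siC replicate 3, in which TEAD4 was low at 8.51 FPKM, it passed (limma adjusted p = 0.00208). TEAD2 and TEAD3 differed by -0.054 and -0.10 on the log2 scale (limma adjusted p = 0.728 and 0.577). VGLL4, which competes with YAP1 for TEAD, had a log2 change of 0.29 (limma adjusted p = 0.0585). VGLL1 was listed at 0 in all libraries, and VGLL2 and VGLL3 stayed under 0.1 FPKM.

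Further genes described as YAP1 and WWTR1 targets moved in both directions. Of the 10 tested, 1 was lower and 2 were higher at the threshold, and the median log2 change was 0.13, or 0.34 without siC replicate 3. With groups that did not overlap, 3 were lower and 4 higher, as 15.1% and 11.9% of all genes tested were. CRIM1, a membrane protein that binds BMP growth factors, was at 13.8, 13.7 and 15.2 FPKM in siC and at 6.97, 6.80, 7.14 and 6.40 FPKM in siIGF2BP1. It fell to 47.9% of siC (log2 change of -1.05 with an SE of 0.0684 at a limma adjusted p = 0.000489). NT5E, the surface enzyme that makes adenosine from AMP, was at 11.8, 11.5 and 11.4 FPKM in siC and at 21.8, 22.1, 20.3 and 20.8 FPKM in siIGF2BP1. It rose to 184% of siC (log2 change of 0.87 with an SE of 0.0569 at a limma adjusted p = 0.000489). CRIM1 and NT5E passed in all 7 fits that left out 1 library. IGFBP3, a binding protein of insulin-like growth factors, rose from 1.84 ± 0.186 FPKM (SD, n = 3) to 3.25 ± 0.271 FPKM (SD, n = 4) (log2 change of 0.79 at a limma adjusted p = 0.00634), and passed only in the fit without siC replicate 3 of those 7. MYOF, a protein of membrane repair, and F3, the tissue factor of coagulation, differed by 0.69 and 0.56 on the log2 scale (limma adjusted p = 0.0137 and 0.0135). Both passed without siC replicate 3 (limma adjusted p = 0.00781 and 0.00996), as did PTPN14, a phosphatase that binds YAP1, which was lower (0.00905). With voom MYOF and PTPN14 passed as well. TGFB2, under the filter, went from 0.962 ± 0.505 FPKM (SD, n = 3) to 0.329 ± 0.104 FPKM (SD, n = 4) and did not pass without the filter (limma adjusted p = 0.153). The TEAD motif occurred in 4 of the 12 promoter windows found for this list (33.3%), which cover 11 of its 16 genes. Of the genes with a match, only PTPN14 passed the filter. NT5E and IGFBP3 had no match, and CRIM1 had no window.

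Of the 7 relatives of member genes, 2 were expressed above the filter and 0 passed (limma, and with voom 0). Of the 2, 1 was higher with groups that did not overlap, as 11.9% of all genes tested were. NUAK1, the paralogue of NUAK2, went from 5.99 ± 0.489 FPKM (SD, n = 3) to 7.61 ± 0.482 FPKM (SD, n = 4) (log2 change of 0.34 at a limma adjusted p = 0.0420). WISP3, of the family of CYR61 and CTGF, had a log2 change of 0.23 (limma adjusted p = 0.639). WISP1 was listed at 0, and NOV, WISP2 and ANKRD2 stayed under 0.1 FPKM, so that CYR61 and CTGF were the most abundant genes of their family.

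**Figure D5:**
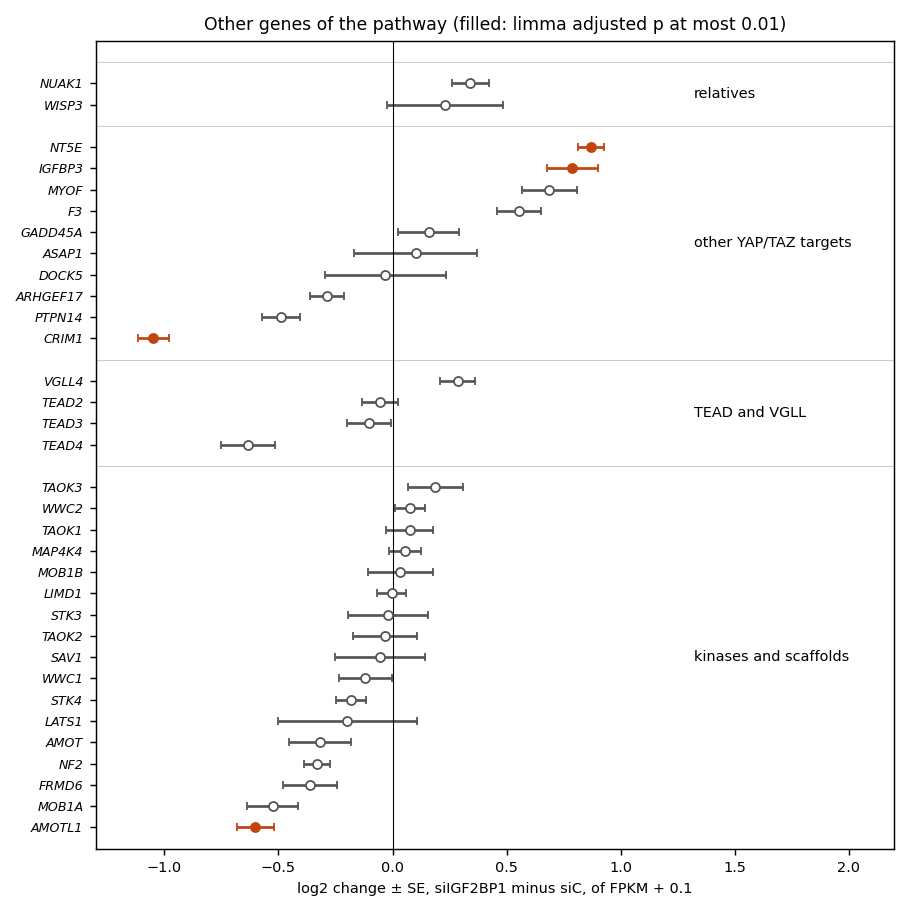
Log2 change ± SE (siIGF2BP1 minus siC, FPKM + 0.1) of the 33 other pathway genes tested, by list. Filled points passed the threshold: CRIM1 and AMOTL1 were lower, NT5E and IGFBP3 higher. The core kinases STK3, STK4 and LATS1, which did not pass, lie at -0.018, -0.18 and -0.20.

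SRF itself, which shares targets with YAP1 and TEAD, fell from 15.6 ± 0.110 FPKM (SD, n = 3) to 7.55 ± 0.554 FPKM (SD, n = 4), or 48.4% of siC (log2 change of -1.04 at a limma adjusted p = 0.000536). The contribution of SRF to the values of ANKRD1, CYR61 or AJUBA was not tested.

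To show which genes had a pattern like that of ANKRD1 and of YAP1, the centred log2(FPKM + 0.1) values of 10671 protein-coding genes were compared over the 7 libraries. Nearest to ANKRD1, by the root mean square difference, were ARPIN, an inhibitor of actin nucleation (0.211), HEPACAM2, an immunoglobulin-like membrane protein (0.220), and HDLBP, the RNA-binding protein vigilin (0.249). HEPACAM2 was at 2.08, 2.46 and 2.90 FPKM in siC and at 0.444, 0.515, 0.608 and 0.403 FPKM in siIGF2BP1. Nearest to YAP1 were STARD4, a carrier of cholesterol (0.0310), PCMTD1 (0.0365) and CDCA7 (0.0394). STARD4 followed YAP1 closely also in level, at 19.9, 20.3 and 22.5 FPKM in siC and at 13.9, 14.4, 13.9 and 14.0 FPKM in siIGF2BP1. A gene with a like difference between the 2 groups comes out near by this measure, whatever its function.

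IGF2BP1 binds mostly the 3′UTR of its targets and can shield them from microRNAs. The 3′UTRs of the 10 genes ran from 770 bases in ANKRD1 to 7515 in TEAD1, with a median of 2050 against 1068 over 19170 protein-coding genes. They were searched for the seed matches of let-7a, whose family IGF2BP1 is known to oppose, and of miR-122, the main microRNA of hepatocytes. The mature sequences from RefSeq are printed with the seed in capitals.
hsa-let-7a-5p: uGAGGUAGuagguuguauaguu
hsa-miR-122-5p: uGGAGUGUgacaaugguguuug
The let-7 site CTACCTC occurred in 0 of the 10 3′UTRs, against 9.82% of all. The miR-122 site ACACTCC, found in 8.10% of all, occurred in CYR61 and NUAK2, from base 446 and base 1288 of their 3′UTRs, and the bases around it are shown with the site in capitals.
CYR61: ccttcctgaagggggACACTCCat
NUAK2: ctcccacaaccccccACACTCCac
Every member other than CYR61 and NUAK2 holds neither site, ANKRD1 with its short 3′UTR among them. Seeds of other microRNAs were not searched, and the part of microRNAs in these differences was not tested. Seed matches show no binding, and microRNA levels were not measured in these libraries.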

How the data were processed

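Huh-7 total RNA was depleted of ribosomal RNA, and directional libraries were sequenced on an Illumina NextSeq instrument. According to the submitters' processing notes and the study's methods, the authors used Cutadapt 1.14, HISAT2 2.1.0 (hg38), SAMtools 1.5, featureCounts 1.5.3 with an Ensembl annotation, and edgeR 3.18.1. Whether counting used strand is not stated, so overlapping genes are uncertain. The deposited table gives, per gene, a length in bases and FPKM values normalized by the authors for each library. The authors' own log2 fold changes, p-values and FDR values, deposited in the same table, were not used.

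FPKM multiplied by length gave whole reads for 100% of values above 0, within 0.1 read, and hence the depth. Genes that averaged 1 FPKM or more were tested on log2(FPKM + 0.1), a scale that understates changes of low genes, with limma 3.58.1 in R 4.3.3 (mean-variance trend, siIGF2BP1 minus siC, two-sided, Benjamini-Hochberg over all genes tested, threshold 0.01 as in the study). The 10 genes were taken by symbol, and their FPKM are given without a test. The members and lists were chosen with earlier results of these data known. Outside the members, the genes named are those of the lists past the threshold, the tested TEAD and VGLL genes, the core kinases and their partners (STK3, STK4, LATS1, SAV1, MOB1A, MOB1B, NF2), the 2 largest other changes of each list, IGF2BP1, SRF and the 3 genes most like ANKRD1 and YAP1. WTIP, TGFB2, PTPN14, TAOK2, LIMD1, ASAP1 and DOCK5, and the genes named as listed at 0 or low, were chosen after their values were seen. GC content and 3′UTRs came from GENCODE transcripts, promoters and microRNAs from RefSeq.

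Groups and replicate numbers came from the sample titles. Nothing states that replicates were separate cultures, so p-values measure the spread between these libraries, which may be technical. Replicates of a group differed by more than counting error in every pair (chi-square over degrees of freedom from 1.99 to 56.8). Alternatives were a pseudocount of 1, no filter, an average of 5 FPKM or more, centring on the median, quantile normalization, voom on the recovered reads, a replicate block, removal of the GC trend of each library, the latter 2 together, and leaving out each library. The values of WTIP and TGFB2 without a filter were added after seeing the data. The scripts were tested on simulated data.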

Additional observations from a re-analysis of the deposited data

Results flagged for a closer look

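In siIGF2BP1 replicate 3, TEAD4 was at 7.37 FPKM and from 6.27 to 6.29 FPKM in the other 3 siIGF2BP1 libraries, a gap of 0.984 of the range of the group, more than Dixon's test allows for 4 samples. NUAK1 stood apart in the same library, at 8.33 FPKM against 7.34 to 7.44 FPKM, a gap of 0.897 of the range. These were 2 of 32 results examined, and chance gives about 1.6.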

How the results depend on the processing

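The log2 changes of the 10 genes kept their direction under every alternative that tested them; with at least 5 FPKM, 7 of the 10 were tested. Their median, -0.62, ran from -0.68 to -0.51 over the fits that left out 1 library, -0.51 being without siC replicate 3. Over all genes, 338 were lower and 245 higher; leaving out 1 library gave 53 to 990 lower and 66 to 533 higher, the highest without siC replicate 3. Without a filter 206 were lower and 146 higher, with voom 489 and 353, and with the GC trend removed 511 and 469. With the replicate block, alone or with the GC trend removed, 0 genes passed in either direction, the other pathway genes and IGF2BP1 itself included. The median of the 10 was then -0.56 and -0.54. The block took only replicates 1 to 3 of each group, so siIGF2BP1 replicate 4 was left out, and it spent further degrees of freedom on the replicates. Its 0 calls therefore cannot be read as an effect of pairing. The replicate numbers are not stated to pair libraries, and same-numbered libraries did not deviate together (correlation -0.118 to -0.0263 over 3 pairs). Of the other pathway genes, 2 were lower and 2 higher; this became 1 and 1 without a filter or with at least 5 FPKM, 4 lower with voom, 5 lower and 4 higher with the GC trend removed, and 1 to 6 lower and 1 to 4 higher over the fits that left out 1 library. Signs turned, with no call in either direction, for 9 of the 33 other pathway genes tested. Over the fits that left out 1 library, LATS1 ran from -0.42 to 0.16, SAV1 from -0.21 to 0.17, MOB1B from -0.069 to 0.19, STK3 from -0.12 to 0.13, TAOK2 from -0.21 to 0.075, LIMD1 from -0.036 to 0.045, ASAP1 from -0.088 to 0.42 and DOCK5 from -0.22 to 0.26. SAV1 was at 0.0023 with voom, and STK3 at 0.071 with the replicate block, 0.075 with block and GC trend removed, 0.011 with median centring and 0.014 with voom. TEAD2 was at 0.0085 with quantile normalization. The causes were not tested. Counting error is largest for ANKRD1, NUAK2 and CYR61, with as few as 87, 89 and 99 reads in a library.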
